A study of Mus musculus with 6 samples.

Results

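The genes described here are 10 markers of mural cells, the contractile and supporting cells that wrap blood vessels. They were the gene lines whose GENCODE symbol was Acta2, Tagln, Myh11, Cnn1 or Mylk, the 5 contractile genes, or Rgs5, Pdgfrb, Kcnj8, Abcc9 or Cspg4, the 5 pericyte genes. All 10 were found among the 53801 gene lines of each file. The study sequenced poly-A RNA of whole maxillary prominences, the paired facial swellings that form the upper jaw, from mouse embryos of strain C57BL/6 (C57BL/6J in the growth notes) at E12.5 and compared 3 WT samples with 3 wnt1cre; Rosa26Dlx2/- samples, called Dlx2OE below. In Dlx2OE embryos a knock-in at Rosa26 (CAG-LSL-Dlx2-3xFlag) is switched on by Cre driven from wnt1, which acts in neural crest cells and their descendants, so endothelial and blood cells are not its target. WT embryos carried neither Cre nor the knock-in as far as the labels say. The RNA came from several littermates, and the sex-linked counts given below show that 5 of the samples hold more than 1 embryo. The p-values measure the spread between these samples, not between single embryos.

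Vascular smooth muscle cells surround arteries and larger vessels and contract through smooth muscle actin, smooth muscle myosin and the proteins that regulate them. Pericytes sit on capillaries inside the basement membrane and are attracted by platelet-derived growth factor from endothelial cells, which they sense through PDGFRB. In the face and forebrain, mural cells derive largely from the neural crest, whereas the endothelium they cover comes from mesoderm, and several of the markers are also used by other cells, PDGFRB by facial mesenchyme and ACTA2 by embryonic skeletal muscle.

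The libraries held 26155500 to 31308813 counts on genes. Dlx2 itself had 1255, 1056 and 1409 counts in WT against 3521, 4102 and 3336 in Dlx2OE samples, 1.60 ± 0.118 (SE) higher on the log2 scale with an edgeR quasi-likelihood adjusted p of 0.00241. The knock-in carries Dlx2 coding sequence, so its reads cannot be told apart from those of the resident gene. Several libraries stood apart. Dlx2OE sample 1 correlated at 0.974 and 0.964 with samples 2 and 3 of its group on the log2 scale. Its correlations with WT samples 1 to 3 were 0.963, 0.965 and 0.972. Dlx2OE samples 2 and 3 correlated at 0.987 with each other. Dlx2OE sample 3 had 14.7% of its reads in no gene, against 5.03% to 7.81% in the other 5. WT sample 2 had 307 counts of Xist, the RNA of the inactive X chromosome, against 33375 to 68121 elsewhere, and the most counts of the Y-linked Ddx3y, 2445 against 436 to 1934. The other 5 samples thus had both RNAs in quantity, so each held RNA of both sexes. WT sample 2 was largely male, and the part of sex in the marker values was not tested. The prominence was recognisable by its 16 mesenchyme markers, which summed to 4978 to 5404 CPM in WT and 5650 to 5781 CPM in Dlx2OE samples. CPM are counts scaled to library size, with library sizes adjusted by the TMM method.

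Of the 9 genes that could be tested, 1 changed. Rgs5, a pericyte gene, fell to 43.4% of its WT level in Dlx2OE samples. Acta2, Myh11, Cnn1 and Kcnj8 had mean levels of 41.4% to 54.4% of WT with no overlap between the groups, but their adjusted p-values were 0.0806 to 0.136. Pdgfrb and Mylk had means of 109% and 102% of WT.

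Of the 10 genes, 9 passed the filter on low counts, and 7 of these had a lower and 2 a higher estimate in Dlx2OE samples. At an adjusted p under 0.05 over all 17514 genes tested, 1 of 9 was called lower, where 3.46% of all genes were, and 0 of 9 were called higher, where 2.99% were. The same 1 gene also passed the study's additional limit of a log2 fold change below -1, which 1.62% of genes met. The study set that limit on DESeq2 results, and here it was laid over the edgeR calls. Before adjustment 6 of 9 had p under 0.05. The share of all genes under that limit was not counted, so such counts, here and for the lists below, have no background. The Wald test of DESeq2, the package the study used, called 3 of the genes lower (Acta2, Rgs5 and Cspg4). Of the 19047 genes to which it gave an adjusted p, it called 7.21% lower and 1055 genes higher. In 5 of the 9 every Dlx2OE sample lay below every WT sample, which held for 17.3% of all genes tested, and in 0 of 9 every Dlx2OE sample lay above, which held for 16.7%. The median log2 fold change was -0.87 over the 9 genes and 0.00 over all genes. The genes share samples and some share cells, so these counts are not those of independent measurements. With 3 samples against 3, an exact two-sided permutation test cannot give a p under 0.1 for any gene taken alone, and 5 of the 10 genes were at 0.1.

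**Figure D1:**
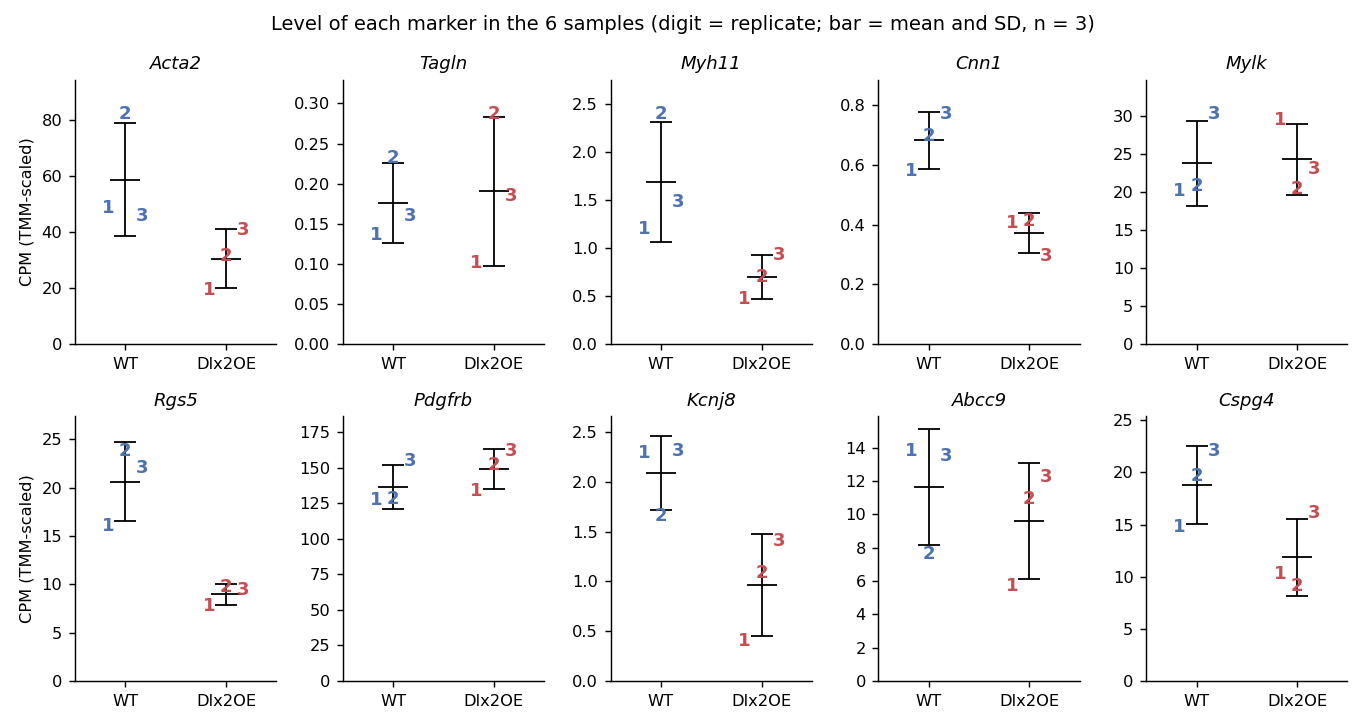
Level of each of the 10 genes in TMM-scaled CPM (vertical axes from 0, a separate scale for each gene) in WT (blue) and Dlx2OE (red) samples, with digits giving the replicate number and black bars the mean and SD of 3 samples. Acta2, Myh11, Cnn1, Rgs5 and Kcnj8 have all 3 Dlx2OE samples below all 3 WT samples, and the other 5 genes overlap.

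To compare levels between genes, CPM were divided by the exon length of each gene in kilobases. In WT samples Acta2, at 26.7 ± 9.22 CPM per kb (SD, n = 3), and Pdgfrb, at 25.0 ± 2.84, were the highest of the 10 and overlapped each other. Rgs5 followed at 4.54 ± 0.896 CPM per kb, apart from both neighbours in this order. Mylk (2.11 ± 0.498), Cspg4 (1.58 ± 0.314) and Abcc9 (1.39 ± 0.415) formed a run in which each overlapped the next. Kcnj8 was at 0.819 ± 0.145 CPM per kb, just below the lowest Abcc9 value. Cnn1 (0.249 ± 0.0348) and Myh11 (0.222 ± 0.0821) overlapped near the bottom, and Tagln was last at 0.0888 ± 0.0250. The place of Tagln is not a secure level, since its few counts can understate it for the reason given with its values.

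Upstream sequence was examined for the genes in the RefSeq promoter table (GRCm38.p6), which gives 250 bases before and 50 bases after each start. It held 7 of the 10, Acta2, Cnn1, Mylk, Rgs5, Kcnj8, Abcc9 and Cspg4. The element best known for smooth muscle genes is the CArG box, bound by serum response factor, which has CC and GG around a core of A and T. A CArG box with a pure A and T core was found, on either strand, in 0 of the 7 windows, and in 1.63% of all 32851 windows. After that search, boxes with 1 G or C in the core were also counted. They were present in 8.50% of all windows and in 1 of the 7, that of Acta2, which holds a pair. Those 2 stretches are shown because Acta2 is the most abundant contractile gene here, on the minus strand with the box in capitals, the first at chr19:34255438-34255467 and the second at chr19:34255388-34255417, 94 and 44 bases before the RefSeq start at their first base and inside a first exon annotated by GENCODE.
Acta2 first box: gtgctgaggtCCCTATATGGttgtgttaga
Acta2 second box: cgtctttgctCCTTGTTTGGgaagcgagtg
The letters TAATTA and TAATTG, cores of sites for homeodomain proteins such as the DLX family, were in 0 of the 7 windows, and in 5.29% and 8.0% of all windows. CATTCC, a core of TEAD sites, was in 3 of 7 (Abcc9, Acta2 and Mylk) and in 14.7% of all, and TGGGAA, a core of sites for the Notch effector RBPJ, was in 3 of 7 (Abcc9, Acta2 and Kcnj8) and in 25.6% of all. In Abcc9 and in the second Acta2 stretch TGGGAA overlaps another of the searched elements.

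The 250 bases upstream of Rgs5 (chr1:169655251-169655500, plus strand) are shown because it is the gene that changed, and those of Kcnj8 (chr6:142571615-142571864, minus strand) because it had the lowest Dlx2OE level relative to WT among the other pericyte genes. Neither stretch holds any of the searched letters (TGGGAA of Kcnj8 begins at its start, after the stretch), so no base is in capitals.
Rgs5 upstream: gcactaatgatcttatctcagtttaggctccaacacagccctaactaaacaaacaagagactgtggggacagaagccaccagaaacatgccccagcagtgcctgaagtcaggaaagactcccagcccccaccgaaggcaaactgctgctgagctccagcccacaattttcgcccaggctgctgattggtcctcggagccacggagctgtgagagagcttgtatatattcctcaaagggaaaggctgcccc
Kcnj8 upstream: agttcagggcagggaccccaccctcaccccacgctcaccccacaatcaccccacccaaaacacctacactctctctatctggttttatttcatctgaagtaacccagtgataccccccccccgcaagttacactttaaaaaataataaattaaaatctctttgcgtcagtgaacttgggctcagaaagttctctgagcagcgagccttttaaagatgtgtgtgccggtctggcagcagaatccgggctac
A missing letter pattern says only that these letters are not in these windows.

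The contractile apparatus was described first, beginning with its filaments. Acta2 (ENSMUSG00000035783, chromosome 19, 34241090 to 34255590) encodes smooth muscle alpha-actin, the thin filament of contractile mural cells. It had 1417, 2470 and 1421 counts in WT samples 1 to 3, against 576, 988 and 1099 in the Dlx2OE samples in the same order, or 48.4, 82.0 and 45.6 CPM against 19.4, 31.5 and 40.6 CPM. WT sample 2 was far above the other 5, the other 2 WT samples were next, and the groups did not overlap. The log2 fold change was -0.94 ± 0.304 (SE) with an adjusted p of 0.0924 by edgeR and 0.00571 by DESeq2, so whether it passed depended on the test. Without WT sample 2 the estimate was -0.63 with an adjusted p of 0.276.

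Reads of the actins are hard to separate because their coding sequences are nearly the same, and reads with several places in the genome are not counted to a gene. Acta1 and Actc1, the skeletal and cardiac alpha-actins, had estimates of -0.85 ± 0.489 and -0.86 ± 0.421, with adjusted p-values of 0.279 and 0.212. Actg2, the enteric smooth muscle actin, had 1.10 to 1.51 CPM in WT and 0.701 to 0.844 CPM in Dlx2OE samples, with an adjusted p of 0.134. The cytoplasmic actins Actb and Actg1, present in every cell, had log2 fold changes of 0.14 and 0.06. All 3 muscle paralogs thus had estimates below 0 alongside Acta2, and none passed the test.

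The skeletal muscle markers had the same highest and lowest sample as Acta2, with a different order between them. Their 15 genes summed to 224, 453 and 253 CPM in WT and 99.5, 182 and 283 CPM in Dlx2OE samples. WT sample 2 was again the highest and Dlx2OE sample 1 the lowest. Dlx2OE sample 3 was above WT samples 1 and 3, so the groups overlapped, unlike those of Acta2. All 13 markers that could be tested had lower estimates (median -0.85), with 3 at an unadjusted p under 0.05. By edgeR 0 were called, against 3.46% of all genes called lower, and by DESeq2 1 was called lower, against 7.21%. Per 100 CPM of these markers, Acta2 stood at 21.6, 18.1 and 18.0 CPM in WT and 19.5, 17.3 and 14.3 CPM in Dlx2OE samples, and the groups overlapped. The share of Acta2 counts that came from skeletal rather than smooth muscle was not tested. In bulk tissue, fewer cells of a type and less RNA per cell cannot be told apart.

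Myh11 (ENSMUSG00000018830, chromosome 16, 14194535 to 14291372) encodes the smooth muscle myosin heavy chain, the thick filament motor and the marker most restricted to smooth muscle. It had 35, 72 and 46 counts in WT against 14, 22 and 25 in Dlx2OE samples, or 1.20, 2.39 and 1.48 CPM against 0.473, 0.701 and 0.923 CPM. Again WT sample 2 was the highest, and no Dlx2OE sample reached a WT sample. The log2 fold change, the most negative of the 9, was -1.27 ± 0.384 with an adjusted p of 0.0806 by edgeR and 0.0677 by DESeq2. The non-muscle heavy chains Myh9 and Myh10, far more abundant in CPM, had log2 fold changes of 0.16 ± 0.167 and 0.34 ± 0.151 and did not pass the test.

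Cnn1 (ENSMUSG00000001349, chromosome 9, 22099216 to 22109630) encodes calponin, which binds actin and slows the myosin motor in differentiated smooth muscle. It had 17, 21 and 24 counts in WT against 12, 13 and 8 in Dlx2OE samples, or 0.581, 0.697 and 0.770 CPM against 0.405, 0.414 and 0.295 CPM. The groups did not overlap, but only 4 counts separated the lowest WT from the highest Dlx2OE sample. The log2 fold change was -0.87 ± 0.333, with an adjusted p of 0.135 by edgeR and 0.401 by DESeq2. Its paralogs Cnn2 and Cnn3, expressed outside muscle, had estimates of 0.18 ± 0.107 and -0.42 ± 0.134, with edgeR adjusted p-values of 0.290 and 0.0925. The DESeq2 adjusted p-values were 0.421 and 0.0277, so the call of Cnn3 depended on the test.

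Tagln (ENSMUSG00000032085, chromosome 9, 45929619 to 45936058) encodes SM22-alpha, an actin-binding protein and one of the earliest markers of the smooth muscle lineage. Only 4, 7 and 5 counts were recorded in WT against 3, 9 and 5 in Dlx2OE samples, too few for the test, and the groups overlapped fully. These counts can understate the gene, because 67.9% of its annotated exon sequence lies under exons of other genes on the opposite strand, 1241 bases under the antisense RNA Gm48529 and 108 bases under the last part of Pcsk7. In the counting mode used, a read on 2 genes goes to neither unless strand separates them, and the strand setting is not given in the sources used here. Gm48529 had 6, 4 and 5 counts in WT against 6, 11 and 7 in Dlx2OE samples, as few as Tagln. The related Tagln2, found in many cell types and without such an overlap, had 52.0, 55.2 and 52.8 CPM in WT and 34.8, 34.9 and 39.9 CPM in Dlx2OE samples, and fell by 0.55 ± 0.0976 on the log2 scale with an edgeR adjusted p of 0.0239. It says nothing of Tagln itself, for which no direction can be given.

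Mylk (ENSMUSG00000022836, chromosome 16, 34745210 to 35002420) encodes myosin light chain kinase, which starts contraction and is also active in non-muscle cells. It had 590, 627 and 941 counts in WT against 873, 639 and 622 in Dlx2OE samples, or 20.2, 20.8 and 30.2 CPM against 29.5, 20.3 and 23.0 CPM. One sample of each group was high and the groups overlapped. The log2 fold change was 0.03 ± 0.202 with an adjusted p of 0.925, and its sign was negative under a correction for gene length and GC content (-0.23). Unlike Acta2 and Myh11, Mylk was not highest in WT sample 2.

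Rgs5 (ENSMUSG00000026678, chromosome 1, 169655501 to 169695813) is among the most used markers of pericytes and encodes a regulator that speeds up the switching off of G-protein signals from vasoactive receptors. It had 469, 717 and 687 counts in WT against 229, 304 and 255 in Dlx2OE samples, or 16.0, 23.8 and 22.0 CPM against 7.73, 9.68 and 9.42 CPM. The 3 Dlx2OE samples were close together, and the highest of them was below every WT sample. Rgs5 fell by 1.20 ± 0.189 on the log2 scale with an edgeR adjusted p of 0.0176, and the DESeq2 adjusted p was 4.47e-07. Without WT sample 2 the adjusted p was 0.0852 and without Dlx2OE sample 2 it was 0.0541, with log2 fold changes of -1.10 and -1.27. When any of the other 4 samples was left out it passed, Dlx2OE sample 3 included (-1.24, adjusted p 0.0441).

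Pdgfrb (ENSMUSG00000024620) encodes the receptor for platelet-derived growth factor BB that draws pericytes to new vessels. In contrast to Rgs5 it had 3731, 3864 and 4826 counts in WT against 3962, 4780 and 4386 in Dlx2OE samples, or 127, 128 and 155 CPM against 134, 152 and 162 CPM. The groups overlapped, and the log2 fold change was 0.13 ± 0.121 with an adjusted p of 0.510. As background, PDGFRB is made by facial mesenchyme as well as by mural cells, and how its counts divide between them was not tested.

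Set against Pdgfrb within each sample, Rgs5 stood at 0.126, 0.186 and 0.142 of the Pdgfrb CPM in WT and at 0.0578, 0.0636 and 0.0581 in Dlx2OE samples. The Dlx2OE values were close together, and the lowest WT value was above all of them. Within-sample ratios do not depend on how libraries are scaled. This ratio was chosen with the counts of both genes known and was given no test, so it adds nothing to the values of Rgs5 alone.

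Kcnj8 and Abcc9 encode the pore (Kir6.1) and the sulfonylurea receptor (SUR2) of the ATP-sensitive potassium channel that relaxes pericytes and vascular smooth muscle. They are neighbours on chromosome 6, Kcnj8 (ENSMUSG00000030247) at 142564837 to 142571614 and Abcc9 (ENSMUSG00000030249) at 142587862 to 142702315, both on the minus strand with 16247 bases between them. Kcnj8 had 67, 50 and 72 counts in WT against 12, 34 and 38 in Dlx2OE samples, or 2.29, 1.66 and 2.31 CPM against 0.405, 1.08 and 1.40 CPM. Dlx2OE sample 1 was far below the rest, and the groups did not overlap. The log2 fold change was -1.11 ± 0.430 with an adjusted p of 0.136 by edgeR and 0.105 by DESeq2, and it was -0.76 without Dlx2OE sample 1.

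Abcc9 had 404, 230 and 420 counts in WT against 168, 342 and 332 in Dlx2OE samples, or 13.8, 7.63 and 13.5 CPM against 5.67, 10.9 and 12.3 CPM. WT sample 2 was the second lowest of all 6, so the groups overlapped, and the log2 fold change was -0.28 ± 0.331 with an adjusted p of 0.601. In both genes Dlx2OE sample 1 was the lowest of the 6 and WT sample 2 the lowest of its group. The ratio of Kcnj8 to Abcc9 CPM was 0.166, 0.217 and 0.171 in WT and 0.0714, 0.0994 and 0.114 in Dlx2OE samples. Taken as a ratio, the subunits of the channel therefore differed between the groups with no overlap although the receptor subunit alone overlapped. The ratio was chosen with the counts known and was given no test.

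Cspg4 (ENSMUSG00000032911, chromosome 9, 56865033 to 56899870) encodes the proteoglycan NG2, carried on the surface of pericytes, smooth muscle and some progenitor cells. It had 431, 593 and 688 counts in WT against 305, 287 and 436 in Dlx2OE samples, or 14.7, 19.7 and 22.1 CPM against 10.3, 9.14 and 16.1 CPM. Dlx2OE sample 3 reached above WT sample 1, which was the only overlap. The log2 fold change was -0.67 ± 0.248, and its call depended on the fit, with an adjusted p of 0.125 by edgeR, 0.0443 by DESeq2 and 0.0113 by edgeR with the correction for length and GC content (-1.03).

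**Figure D2:**
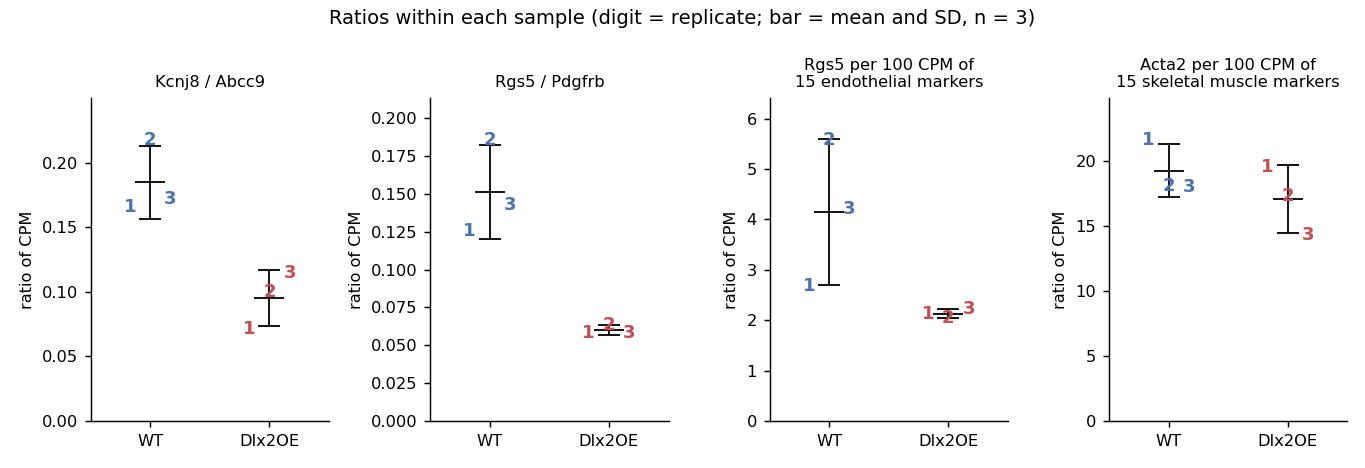
Ratios of CPM within each sample (vertical axes from 0) for Kcnj8 to Abcc9, Rgs5 to Pdgfrb, Rgs5 to 100 CPM of the summed endothelial markers and Acta2 to 100 CPM of the summed skeletal muscle markers, with digits giving the replicate and bars the mean and SD of 3 samples. The first 3 ratios are lower in every Dlx2OE sample than in every WT sample, and the last overlaps.

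The vessels themselves were read from 15 endothelial markers. They summed to 600, 427 and 524 CPM in WT and 365, 473 and 425 CPM in Dlx2OE samples, so the groups overlapped, with a median log2 fold change of -0.31. Of the 15, 14 had lower estimates, and edgeR called 1 lower, against 3.46% of all genes, and DESeq2 3, against 7.21%. The gene called by edgeR was Emcn, a sialoglycoprotein of capillary and venous endothelium, which fell by 0.97 ± 0.229 on the log2 scale (edgeR adjusted p = 0.0464). Per 100 endothelial CPM, Rgs5 stood at 2.67, 5.57 and 4.20 CPM in WT and 2.12, 2.05 and 2.22 CPM in Dlx2OE samples. Every Dlx2OE value was below every WT value, but the WT values differed among themselves by more than the gap between the groups. Acta2 per 100 endothelial CPM was 8.07, 19.2 and 8.69 CPM in WT and 5.32, 6.65 and 9.55 CPM in Dlx2OE samples, and overlapped. Both ratios were chosen with the counts known and were given no test.

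The 3 genes whose profile over the 6 samples was most like that of Rgs5, by the mean absolute difference of centred log2 CPM among 13224 genes, were Snord104 (0.0911), Tgm2 (0.112) and Six2 (0.119). Snord104 is a small nucleolar RNA, Tgm2 encodes the matrix cross-linking enzyme transglutaminase 2 and Six2 a homeobox factor of embryonic mesenchyme. Six2 had 240, 284 and 281 CPM in WT and 113, 126 and 141 CPM in Dlx2OE samples. The mural genes ranked lower in this order, Acta2 at 207, Cspg4 at 462, Abcc9 at 4265, Mylk at 7133 and Pdgfrb at 8526. Myh11, Cnn1 and Kcnj8 were below the level needed to be ranked. The ranks of genes outside the 10 markers, further pericyte genes included, are not given here.

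Summed over the 5 contractile genes, the values came to 70.5, 106 and 78.2 CPM in WT against 49.9, 53.2 and 64.9 CPM in Dlx2OE samples. The groups did not overlap, and the ratio of the means was 0.660, but it was 0.972 without Acta2, which made up most of the sum. What remained was mostly Mylk, at 102% of WT, while Myh11 and Cnn1 were at 41.4% and 54.4% of WT. For the 5 pericyte genes the sums were 174, 181 and 215 CPM in WT and 158, 183 and 201 CPM in Dlx2OE samples and overlapped. Their ratio was 0.951 with Pdgfrb and 0.590 without it. Either sum was therefore decided by its most abundant gene.

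Other genes of the contractile programme did not share one direction. Of 20 further smooth muscle genes 19 were tested, 11 with higher and 8 with lower estimates (median 0.10). By edgeR 1 was called higher and 1 lower, against 2.99% and 3.46% of all genes. DESeq2 called 2 higher and 4 lower, against 1055 higher and 1373 lower of 19047 genes. Synpo2, an actin-bundling protein, rose by 0.64 ± 0.121 and Tpm1, a tropomyosin that lies along the thin filament, fell by 0.55 ± 0.116 on the log2 scale, with edgeR adjusted p-values of 0.0291 and 0.0360. Of the 13 tested genes of serum response factor and its partners (median -0.10), edgeR called 1 higher and 1 lower, against the same shares. DESeq2 called 2 higher and 1 lower, against the same 1055 higher and 1373 lower of 19047 genes. Srf, whose product binds CArG boxes such as those shown for Acta2, had 47.3, 52.9 and 59.7 CPM in WT and 86.0, 81.7 and 80.9 CPM in Dlx2OE samples and rose by 0.64 ± 0.107 on the log2 scale (edgeR adjusted p = 0.0204). Csrp2, a LIM protein of smooth muscle, fell by 0.87 ± 0.150 (edgeR adjusted p = 0.0214).

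Among 19 tested further pericyte genes, 12 had higher and 7 lower estimates (median 0.14). By edgeR 1 was called higher and 2 lower, against 2.99% and 3.46% of all genes. DESeq2 called 2 higher and 3 lower, against 1055 higher and 1373 lower of 19047 genes. Tbx18, a T-box factor of mural cells that is also used in embryonic mesenchyme, had 3.79, 7.70 and 9.08 CPM in WT and 49.3, 22.2 and 31.3 CPM in Dlx2OE samples and rose by 2.32 ± 0.381 on the log2 scale (edgeR adjusted p = 0.0193). Foxf2, a forkhead factor of brain pericytes and of palate mesenchyme, fell by 1.57 ± 0.365 (edgeR adjusted p = 0.0454). Steap4, a metalloreductase found in pericytes, had 0.957, 0.962 and 1.22 CPM in WT and 0.338, 0.350 and 0.406 CPM in Dlx2OE samples and fell by 1.51 ± 0.307 (edgeR adjusted p = 0.0333).

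Of 18 genes that recruit mural cells or mature vessels, all tested, 11 had lower and 7 higher estimates (median -0.43). By edgeR 3 fell, against 3.46% of all genes, and DESeq2 called 5 lower, against 7.21%. Pdgfd, a second ligand of PDGFRB, had 12.0, 11.0 and 10.2 CPM in WT and 5.64, 5.22 and 4.54 CPM in Dlx2OE samples and fell by 1.10 ± 0.175 on the log2 scale (edgeR adjusted p = 0.0184). Angpt1, the angiopoietin through which mural cells steady the endothelium, fell by 0.83 ± 0.145 and Tgfb2, a growth factor that drives smooth muscle differentiation, by 0.61 ± 0.12 (edgeR adjusted p-values 0.0221 and 0.0309).

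**Figure D3:**
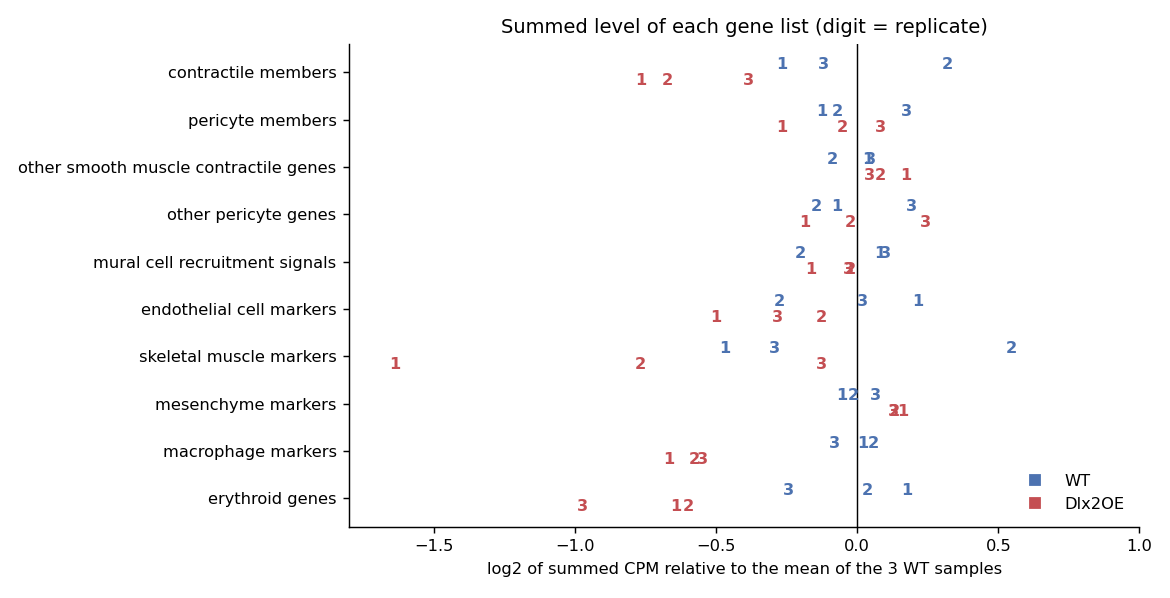
Summed CPM of each gene list as log2 relative to the mean of the 3 WT samples (horizontal axis), with WT samples in blue, Dlx2OE samples in red and digits giving the replicate. The contractile members, macrophage and erythroid lists have all Dlx2OE samples below all WT samples, the mesenchyme list has them above, and the pericyte members, endothelial and skeletal muscle lists overlap.

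Markers of other cells moved between the groups as well, and their part in the mural values was not tested. Over all genes edgeR called 3.46% lower and 2.99% higher. DESeq2 called 7.21% lower, and 1055 of 19047 genes higher. The 10 macrophage genes summed to 97.2 to 107 CPM in WT and 64.8 to 70.4 CPM in Dlx2OE samples, with C1qa, C1qb and C1qc lower by the test, and the 10 erythroid genes to 3326 to 4442 against 2006 to 2597 CPM, with Hba-a1, Hba-a2 and Alas2 lower. Of the 16 mesenchyme markers Twist1, Twist2 and Alx4 rose, while 5 of the 16 had lower estimates (list median 0.15), and DESeq2 called 5 higher and 1 lower. Of the 12 epithelial markers, 4 had higher and 8 lower estimates (median -0.38). Their sums overlapped, with Dlx2OE sample 1 at 1945 CPM against 613 and 638 CPM in Dlx2OE samples 2 and 3. Krt8 and Krt18 fell, no epithelial marker was called higher by either test, and DESeq2 called 3 lower. The 11 neuronal markers summed to 154 to 445 CPM in WT and to 289, 836 and 1805 CPM in Dlx2OE samples, highest in the library with most reads outside genes, with 0 called by edgeR, 5 at an unadjusted p under 0.05 and 2 called by DESeq2. The 8 markers of crest glia had 154 to 162 CPM in WT and 96.3 to 330 CPM in Dlx2OE samples, with 0 called by edgeR, 2 at an unadjusted p under 0.05 and 1 called by DESeq2. No marker list was at 0 in all samples, and 1 glial gene was.

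**Figure D4:**
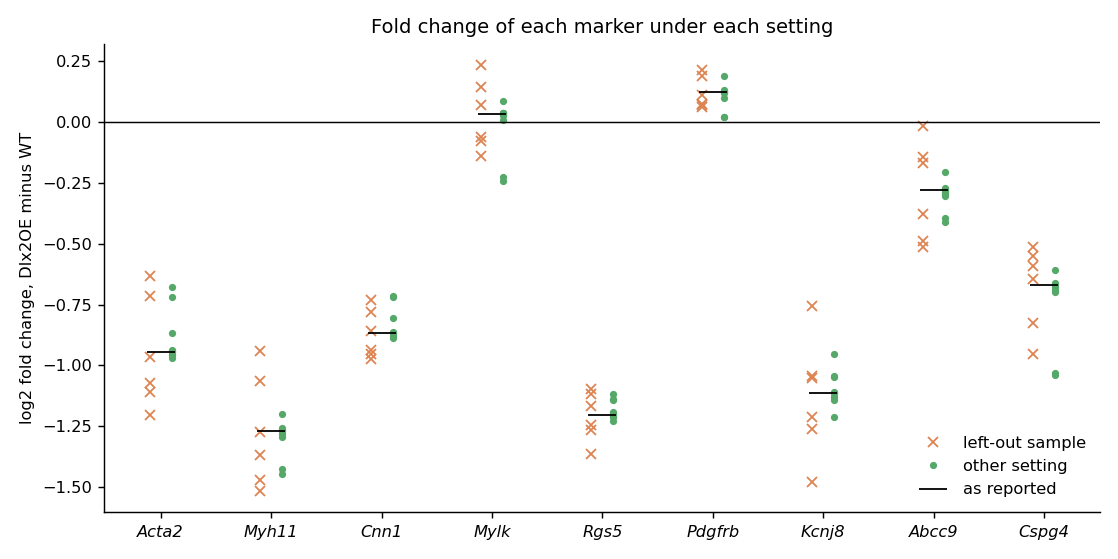
Log2 fold change of the 9 tested genes (vertical axis, Dlx2OE minus WT) as reported (black line), with each of the 6 samples left out in turn (orange crosses) and under the other settings (green points). Rgs5 stays between -1.36 and -1.10, Acta2, Myh11, Cnn1, Kcnj8, Abcc9 and Cspg4 stay below 0, Pdgfrb stays above 0, and Mylk crosses 0.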

How the data were processed

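RNA from E12.5 maxillary prominences of 3 WT and 3 Dlx2OE samples was sequenced as 150 bp read pairs. The sources give different numbers of littermates for the RNA. The authors mapped reads to mm10 with STAR 2.7.3a, counted them per gene with HTSeq 0.12.4 in union mode and deposited raw counts without normalization. The annotation release is not given in the sources used here. Symbols and positions came from GENCODE M21 (GRCm38), where 53706 of the 53801 identifiers were found.

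The quasi-likelihood F test of edgeR 4.0.16 (R 4.3.3) was applied to the counts (filterByExpr with a minimum count of 10, TMM factors, genotype alone, Benjamini-Hochberg adjustment over 17514 genes). A gene was called at an adjusted p under 0.05. SEs are the log2 fold change divided by the square root of F. Log2 CPM, used for the correlations, the likeness of profiles and the length and GC correction, had a prior count of 2. This prior count was not set for the fitted log2 fold changes. Total counts per sample were 26155500 to 31308813. On the TMM-adjusted library sizes, 3 counts correspond to 0.0955 to 0.111 CPM. That figure covers counting error only and was used in no test. DESeq2 1.42.0 was run as an alternative, since the study itself used DESeq2.

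The members and gene lists were chosen with earlier results of these data known. All 10 members were named, and of each list at most the 3 genes per direction with the smallest p among those called, plus paralogs that could share reads, and the 3 genes most like a called member among those with a mean log2 CPM of at least 1. The fit was tested on simulated data. Figures were drawn with matplotlib 3.10.9.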

Additional observations from a re-analysis of the deposited data

Results flagged for a closer look

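The share of reads that fell in no annotated gene lies outside the gene counts used in the comparisons and was above the WT range of 5.03% to 5.43% in every Dlx2OE sample, at 5.75% in sample 1, 7.81% in sample 2 and 14.7% in sample 3. Among the Dlx2OE samples, sample 1 was the lowest for Acta2, Tagln, Myh11, Rgs5, Pdgfrb, Kcnj8 and Abcc9, and sample 3 the highest for Acta2, Myh11, Pdgfrb, Kcnj8, Abcc9 and Cspg4. The part of the share in the marker values was not tested.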

How the results depend on the processing

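Of 134 values of the 9 tested genes under 15 other settings, 123 kept their direction and their side of the threshold. Over all genes 1130 were called. The number was 2428 with DESeq2, 2044 with no filter on low counts, 189 with a replicate block and the length and GC correction together, and 79 to 2091 when 1 sample was left out (79 without WT sample 2, 180 without WT sample 1, 2091 without WT sample 3, 1944 without Dlx2OE sample 1, 213 without Dlx2OE sample 2, 315 without Dlx2OE sample 3). It was 961 with the replicate block alone. The replicate numbers did not pair the samples (correlations of same-numbered deviations -0.07, -0.21 and 0.07), and not every sample correlated best with its own number. Of the 9 genes 1 was called, and 1 with the replicate block, 3 with DESeq2, 2 with no filter (Rgs5 and Acta2), 2 with the length and GC correction (Rgs5 and Cspg4), and 0 to 1 with a sample left out, 0 without WT sample 2 or Dlx2OE sample 2. Mylk, with a log2 fold change of 0.03, turned to -0.23 with the length and GC correction, to -0.24 with it and the replicate block, and to between -0.14 and 0.23 with a sample left out. Rgs5 had -1.36 to -1.10 with a sample left out. The causes of these changes were not tested. Library size alone gave 0.692 for the summed contractile and 0.994 for the summed pericyte genes. Tagln and Cnn1 had few counts, at most 24 in any sample, and the reason for this was not tested.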
